A study of Mus musculus with 258 samples.

Results

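This account describes 864 chromatin loops that were called in activated mouse B cells and not in resting ones, but that start or end at a place where resting cells already had a loop end. Of these, 712 had 1 end at a resting anchor and 152 had both (17.6%). With the same pixel required the set itself changes, and 69 of its 839 loops (8.22%) had both. The 864 loops were chosen by the positions of called loops in the authors' lists, which hold 1866 loops for resting and 4315 for activated cells. On the 19 autosomes, 3384 activated loops had anchors more than 50 kb and at most 500 kb apart. Of these, 2461 (72.7%) had no resting loop within 20 kb at both ends and are called activated-only here, and the other 923 are called kept. Of the activated-only loops, 864 (35.1%) had at least 1 end within 20 kb of any resting loop end, 152 (6.18%) had both, and 1597 had neither. These counts are fixed by the rule of choice and describe the set.

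The cells were B cells purified by negative selection from the spleens of wild-type C57BL6/J mice aged 6 to 8 weeks. The resting group (0 h, no treatment) has 8 in situ Hi-C libraries. The activated group has 26 libraries from cells cultured for 72 h with lipopolysaccharide (LPS, 50 µg/mL), interleukin 4 (IL-4, 2.5 ng/mL) and an antibody against CD180, also called RP105 (0.5 µg/mL). Each state has 1 pooled list, whose name gives the state and no time; the activated list was taken as the 72 h state, the one activated map listed without gene deletion or inhibitor. Neither the libraries that entered each list nor the number of mice is stated. Cell identity could not be checked with marker genes in loop lists.

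In Hi-C, DNA ends that lie close together in the fixed nucleus are ligated and sequenced, and a loop is a pair of places in contact more often than their surroundings. Most such loops in mammalian cells are thought to form when the cohesin ring extrudes DNA until it is stopped at sites bound by CTCF. A CTCF site stops cohesin mainly from 1 direction, so the orientation of the site sets whether an anchor serves as the left or the right end of a loop. Resting B cells are small cells with compact chromatin, and activation by LPS and IL-4 brings growth, division and decompaction of chromatin. The study's question here is how genome folding changes as B cells leave rest.

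The maps differed in expected contacts. Library totals are not stated, so a difference in depth cannot be told apart from a change in local contacts. At 914 resting loops of 50 to 500 kb that were kept, the contacts expected from the local surroundings (the authors' donut background) were 1.52 times as high in the activated map (quartiles 1.29 and 1.83). The lists hold only loops that passed the authors' limits, so a loop missing from the resting list was not called, and the list holds no contact count for it. The 864 loops had a median of 63 observed contacts (18 to 192). Divided by the ratio of expected counts this is 41.4, against a median of 57 for resting loops of 50 to 500 kb. By this measure 507 of the 864 (58.7%) fell below the lower quartile of those loops (45). The members were longer, with a median of 160 kb against 125 kb. Within length classes, each with its own quartile, the shares were 45.1% (to 100 kb), 57.3% (to 200 kb) and 53.4% (to 500 kb). Whether the 864 loops were absent from resting cells or present below the depth of that map was not tested. With 1 list per state there are no replicates and no p-values. Intervals below are 95% intervals (Wilson for shares, exact Poisson for ratios, order statistics for medians) and cover counting error only. Loops of 1 list are not replicates of a state, and differences between classes of loops were not tested.

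Ends of activated-only loops crowded onto resting anchors, and they did so within a few pixels. Of the 4922 ends of the 2461 activated-only loops, 405 lay at the very 5 kb pixel of a resting end and 250 lay 1 pixel away on either side. The number fell to 160 ends at 10 kb, 105 at 15 kb and 96 at 20 kb. Just outside the limit there were 85 ends at 25 kb and 60 at 40 kb, and from 45 to 100 kb the mean was 53.9 ends per step. The steps at 15 and 20 kb, with a mean of 100.5 ends, thus stood closer to this level than to the peak. Of the 864 loops, 378 (43.8%, 40.5 to 47.1) had an end at exactly the same pixel as a resting end and 703 (81.4%) within 10 kb. The 72 loops whose closest end was 20 kb away, just inside the limit, had a median of 58.5 contacts at 2.78 times the donut-expected count. The 52 activated-only loops at 25 kb, just outside, had 67 contacts at 2.64 times. At the length limits, 17 members were 55 kb long (median 107 contacts) and 4 were 490 or 495 kb long (41.5 contacts). Just outside these limits, 13 otherwise matching loops were 50 kb long (112 contacts) and 7 were 505 to 520 kb long (57 contacts).

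**Figure D1:**
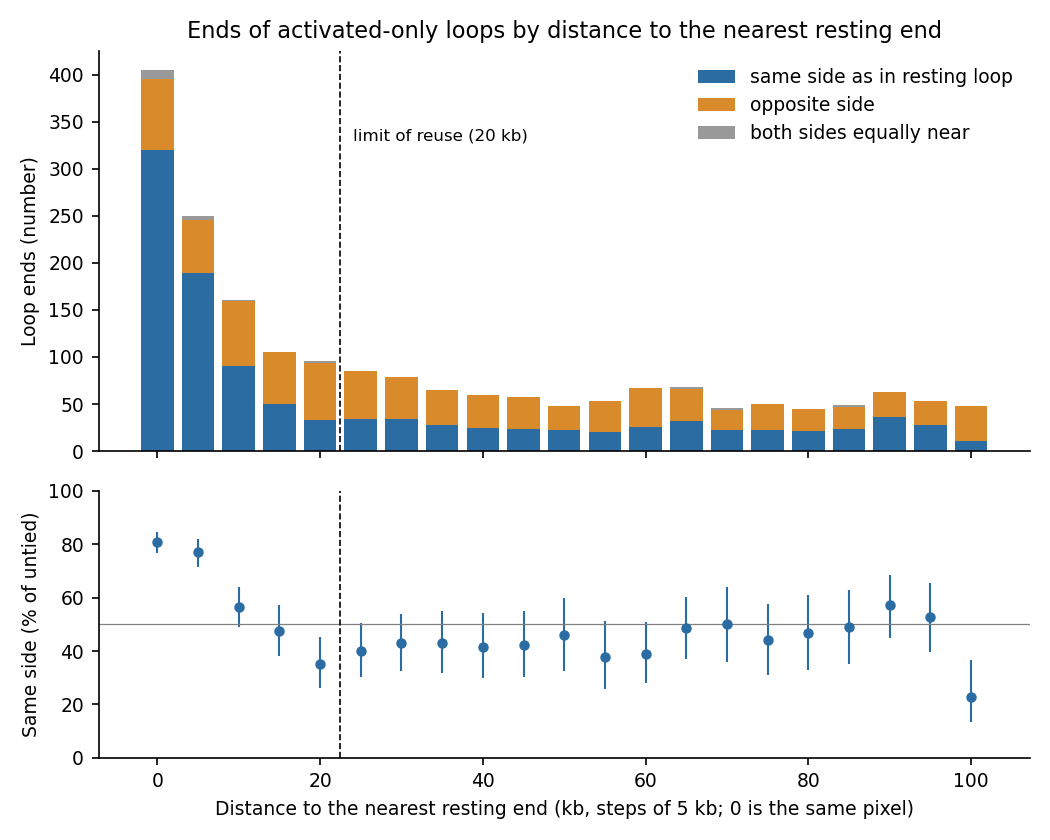
Ends of the 2461 activated-only loops by distance (kb, 5 kb steps) to the nearest resting loop end. Top, number of ends, with colour showing whether the nearest resting end was on the same side of its loop; each step from 5 kb on sums both directions. Bottom, share on the same side among untied ends, with Wilson 95% intervals. The 405 ends at 0 kb were mostly on the same side, and the share is at or below 50% from 15 to 85 kb.

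A reused anchor mostly kept its side. An anchor that had been the left end of a resting loop was again a left end, and a right end again a right end, for 454 of the 712 loops with 1 reused anchor (63.8%, 60.2 to 67.2). For 213 loops (29.9%) the resting loop lay on the opposite side only, so that the activated-only loop and the resting loop ran away from each other from a shared anchor. For 45 loops (6.32%) resting loops left the anchor in both directions. Leaving out these 45, the same side made up 68.1% (64.4 to 71.5). The rule does not ask about sides. It removes kept loops, but these match resting ends at both ends and so could not be among the loops with 1 reused anchor. Their removal can lower the share in the counts by distance below, which take all ends of activated-only loops.

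The share on the same side differed with the distance to the resting end. Among ends at the same pixel as a resting end, 320 of 395 untied ends (81.0%, 76.9 to 84.6) were on the same side. At 5 to 10 kb it was 279 of 404 (69.1%). At 15 to 20 kb the same side made up 83 of 199 (41.7%, 35.1 to 48.7), which was close to the 41.9% at 25 to 40 kb and the 44.8% (41.0 to 48.6) at 45 to 100 kb, both outside the rule. The members that rest on an offset of 15 or 20 kb thus did not share the preference for the side seen at the pixel itself. Left and right ends were reused in similar numbers, with 332 left ends (46.6%, 43.0 to 50.3) and 380 right ends (53.4%). Of the left ends 222 (66.9%) were on the same side only, and of the right ends 232 (61.1%).

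From an anchor reused on the same side, most activated-only loops were longer than the resting loop, an outcome that the rule favours in part. Of the 499 loops with 1 such end, 323 (64.7%, 60.4 to 68.8) were longer than every resting loop that left the anchor in that direction. Their median length was 195 kb, against 80 kb for the longest resting loop of that anchor, and the median gain was 95 kb (quartiles 60 and 152.5). A further 166 were shorter than every such resting loop, with medians of 110 kb against 232.5 kb, and 10 lay in between. The member lengths were limited to 500 kb by the rule, while resting loops of every length could lend an anchor. For 139 of the 864 loops (16.1%) the reused anchors came only from resting loops of at most 50 kb, which must be shorter than any member. Any of the 499 loops set only against such short resting loops were longer by the rule itself. They are counted among the 323, and the share without them was not computed. Resting loops only slightly over 50 kb also left little room for a shorter member. A member had to exceed 50 kb, with its far end over 20 kb from that of the resting loop. The 64.7% therefore cannot be read as a preference for longer loops. The 213 loops that faced away from the resting loop had a median of 160 kb, against 100 kb for the resting loop.

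**Figure D2:**
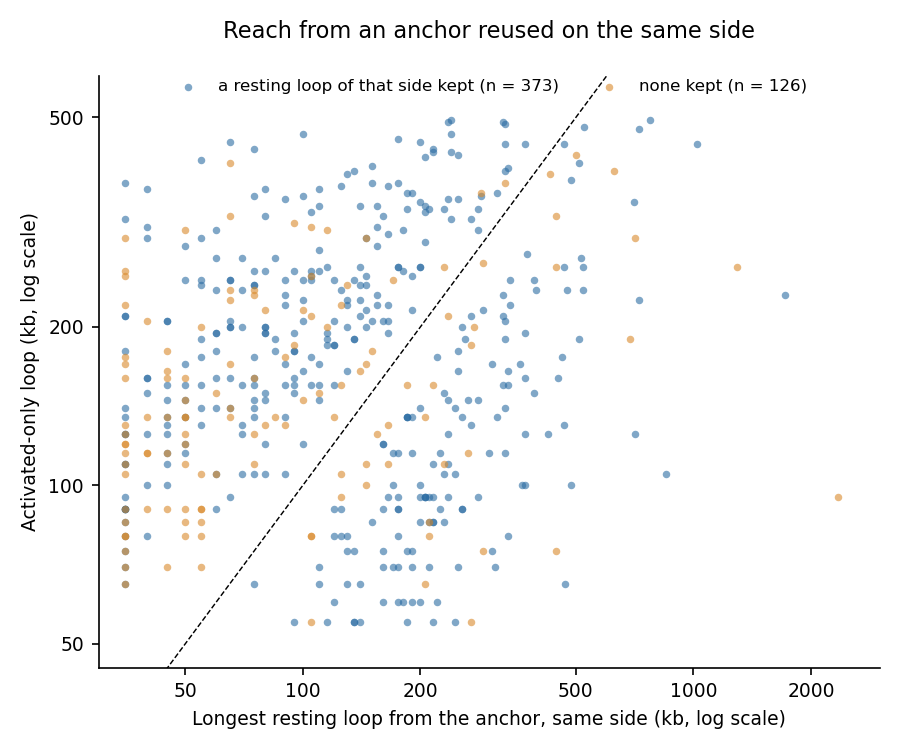
Length of 499 activated-only loops (kb, log scale) against the longest resting loop that left the reused anchor in the same direction (kb, log scale); each point is 1 loop and the dashed line marks equal length. Blue points (373) have a resting loop of that side that was also called in activated cells, and orange points (126) have none. The 323 loops longer than every resting loop lie above the line, and the gap along it follows from the 20 kb rule.

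The resting loop at the reused anchor was in most cases still called in activated cells. For 689 of the 864 loops (79.7%, 76.9 to 82.3), at least 1 resting loop at a reused anchor had an activated loop within 20 kb at both ends. The activated list then held both the old and the added loop. The tolerance was applied at both steps, so the ends of these 2 loops could lie more than 20 kb apart. For the other 175 no resting loop at a reused anchor was called in activated cells. A member was counted if any 1 of its resting loops was kept. Counted per loop over all autosomal resting loops, 1170 of 1814 (64.5%, 62.3 to 66.7) were kept. The share depends on the tolerance, which also decides what is kept, and was 48.3% with 5 kb and 19.2% with the same pixel required. Among loops with 1 reused anchor the share was 72.8% (67.7 to 77.3) for those longer than the resting loop, 81.3% (74.7 to 86.5) for those shorter and 79.3% (73.4 to 84.2) for those facing away. Among loops with 2 reused anchors, 79 (52.0%) had a kept resting loop at both, 63 (41.4%) at 1 and 10 (6.58%) at neither.

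The resting loops that lent an anchor were kept about as often as those that did not. Of the 1814 autosomal resting loops, 853 (47.0%, 44.7 to 49.3) had an end reused by at least 1 member. Of these, 66.8% (63.6 to 69.9) were kept, against 62.4% (59.3 to 65.4) of the other 961. Within length classes the shares were 45.1% and 38.9% for loops of at most 50 kb, then 65.6% and 66.4% (to 100 kb), 77.0% and 80.1% (to 200 kb) and 84.0% and 82.8% (to 500 kb), and the intervals overlapped in each of these classes. Among the few resting loops over 500 kb the order was the other way round from that over all lengths, with 19 of 33 kept (57.6%, 40.8 to 72.8) where an anchor was reused and 11 of 15 (73.3%, 48.0 to 89.1) where none was, and these intervals overlapped too. Longer resting loops more often lent an anchor: 38.9% (34.9 to 43.1) in the shortest class, 45.5% and 48.9% in the next ones and 58.4% (52.6 to 64.1) in the class to 500 kb. Of the 48 resting loops longer than that, 68.8% (54.7 to 80.1) did.

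**Figure D3:**
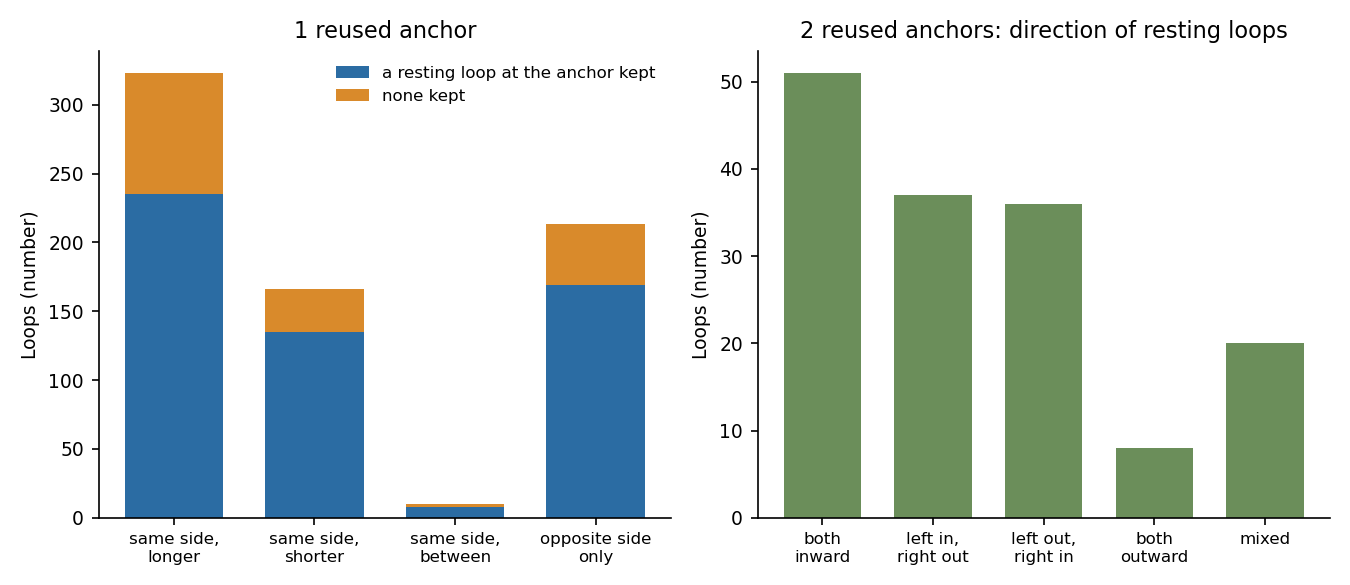
Number of loops by geometry. Left, 712 loops with 1 reused anchor, by the side and length of the resting loop at that anchor, with the part whose anchor had a kept resting loop in blue (235 of 323, 135 of 166, 8 of 10 and 169 of 213). Right, 152 loops with 2 reused anchors by the direction in which resting loops left each anchor; 51 had resting loops pointing inward from both.

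Among the 152 loops that joined 2 resting anchors, several layouts occurred. In 51 (33.6%, 26.5 to 41.4) the resting loops at both anchors pointed inward, as the activated-only loop itself does. Of these 51, 13 closed a chain, in which 1 resting loop ended within 20 kb of the start of the next and the activated-only loop joined the outer ends. In 21 the inner resting loops stood apart, in 16 they crossed, and 1 had both forms. In 37 (24.3%) the left anchor pointed inward and the right one outward, and in 36 (23.7%) the reverse. Such a loop ran from the outer end of the resting loop that points inward to an end from which another resting loop leads away, either beside the first resting loop or within it. Only 8 (5.26%, 2.69 to 10.0) had both resting loops pointing outward, which is a loop across the gap between 2 resting loops, and 20 had anchors with resting loops in both directions. Loops of the first layout had a median length of 200 kb, those with 1 inward and 1 outward anchor 120 and 110 kb, and those with both outward 185 kb. Of the 51 with both anchors inward, 33 (64.7%) were longer than every resting loop at their anchors, and of the 73 with 1 inward anchor, 21 (28.8%) were longer than the inward resting loops.

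The 5 strongest loops with 2 reused anchors, by observed over donut-expected contacts with at least 30 contacts, show several of these layouts. The loop on chromosome 7 from 82280001 to 82705000 (mm9, both anchors included, as for all positions here) joined the left end of 1 resting loop to the right end of the next. It had 49 contacts at 4.55 times the expected count (3.37 to 6.02). The resting loops beneath it were 82280001 to 82515000 (56 contacts, 5.20 times) and 82545001 to 82705000 (53 contacts, 3.03 times), and both were kept, with 143 contacts at 8.87 times and 68 contacts at 2.56 times in activated cells. In activated cells an outer loop was thus called over 2 inner ones that share its ends.

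On chromosome 11 the loop from 109305001 to 109725000 had 30 contacts at 5.36 times the expected count (3.62 to 7.66). Its left anchor carried resting loops to both sides, from 109220001 to 109290000 and from 109305001 to 109450000, and its right end lay 15 kb before the start of another, from 109735001 to 110130000. All 3 were kept, at 2.27, 4.71 and 4.57 times expected in activated cells against 2.32, 3.25 and 4.74 in resting cells. This loop bridged the gap to a neighbouring loop, with no resting loop pointing inward at its right end.

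The other 3 ran from a left anchor with a resting loop pointing inward to the start of another resting loop. On chromosome 5 the loop from 134655001 to 134965000 had 54 contacts at 4.40 times expected, with a kept resting loop at each end (134655001 to 134825000 and 134970001 to 135185000). On chromosome 1 the loop from 193660001 to 193795000 had 78 contacts at 4.35 times and lay inside a kept resting loop of 260 kb (193655001 to 193920000; strength 4.89 from 52 contacts when resting and 5.67 from 107 when activated). Its right end was the start of a second kept loop, from 193790001 to 193920000, so the activated-only loop and that one together fill the larger loop. On chromosome 11 the loop from 5895001 to 6095000 had 112 contacts at 4.37 times (3.60 to 5.25), and the resting loops at its anchors, 5890001 to 5930000 and 6100001 to 6170000, were not called in activated cells.

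The longest loops with 2 reused anchors were on chromosomes 5, 17 and 18. The loop on chromosome 5 from 64770001 to 65260000 (485 kb, 78 contacts, 3.09 times expected) ran 50 kb beyond a kept resting loop, from 64770001 to 65210000. All 4 resting loops at its anchors were kept. On chromosome 17, from 83670001 to 84135000 (460 kb, 41 contacts, 3.23 times, 1 enriched pixel), the 3 resting loops that started at the left anchor, 35 to 120 kb long, were not called in activated cells, and the one that ended at the right anchor was kept. On chromosome 18, from 65450001 to 65910000 (455 kb, 34 contacts, 2.91 times), both inner resting loops were kept.

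Among loops with 1 reused anchor, the strongest were on chromosomes 3, 8 and 12. The loop on chromosome 8 from 67095001 to 67465000 had 51 contacts at 7.33 times the expected count (5.46 to 9.64). It shared its right end, at 10 kb, with a resting loop from 67360001 to 67475000 that had 29 contacts at 3.30 times and was kept in activated cells with 46 contacts at 2.41 times. From this anchor the added, longer loop was thus the stronger of the pair in the activated list.

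In 3 others the activated-only loop ended where a resting loop began. On chromosome 8 the loop from 85385001 to 85615000 had 111 contacts at 6.30 times expected (5.18 to 7.58), and the kept loop on the other side of the anchor, from 85620001 to 85705000, went from 52 contacts at 2.47 times (resting) to 117 at 3.01 times (activated). On chromosome 3 the loop from 14380001 to 14870000 had 37 contacts at 6.39 times (4.50 to 8.81), next to a kept loop from 14875001 to 15195000. On chromosome 12 the loop from 8060001 to 8315000 had 39 contacts at 6.25 times (4.44 to 8.54), next to a kept loop from 8325001 to 8510000 with a strength of 2.72 (resting) and 4.52 (activated). In these cases the 2 loops lay back to back, their ends 10 to 15 kb apart.

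The fifth, on chromosome 12 from 114460001 to 114725000, had 42 contacts at 6.20 times expected (4.47 to 8.37) and ended 60 kb beyond a kept resting loop of 200 kb (114460001 to 114665000; strength 4.20 resting, 6.97 activated). A resting loop of 35 kb from the same anchor, to 114500000, was not called in activated cells.

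The longest loops with 1 reused anchor, at the upper limit of the rule, were joined to kept resting loops of very different length. On chromosome 1 the loop from 64000001 to 64500000 (495 kb, 45 contacts, 3.82 times) began within a kept loop of 775 kb, from 63710001 to 64490000, and reused its right end at 10 kb. On chromosome 16 the loop from 22310001 to 22810000 (495 kb, 38 contacts, 2.87 times) spanned a kept loop of 240 kb that ended at 22805000. On chromosome 6 the loop from 50625001 to 51120000 (490 kb, 29 contacts, 4.69 times) ended at an anchor with resting loops to both sides, the longest of which was 1055 kb and was kept.

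The largest gains in length over the longest resting loop at the anchor, in either direction, were 420, 390, 380, 370 and 365 kb. The first 4 faced away from a resting loop of 45 to 75 kb: on chromosome 8 from 69955001 to 70425000 (29 contacts, 5.93 times), chromosome 12 from 100320001 to 100785000 (39 contacts, 2.94 times), chromosome 3 from 31040001 to 31500000 (22 contacts, 4.50 times) and chromosome 2 from 69965001 to 70395000 (52 contacts, 3.71 times). Of their resting loops, the one on chromosome 8 was kept and the other 3 were not called in activated cells. The fifth, on chromosome 7 from 117305001 to 117775000, ran the same way as a kept resting loop of 100 kb from the same pixel. It had 78 contacts at 3.84 times expected (3.03 to 4.79), and the shorter loop went from 73 contacts at 2.32 times (resting) to 108 at 2.83 times (activated).

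The largest losses in length all fell in 1 stretch of chromosome 13. The loops from 21255001 to 21355000, from 22015001 to 22125000 and from 21800001 to 22035000 were 2255, 1600 and 1490 kb shorter than the longest resting loop at their anchors. They had 67, 76 and 27 contacts, at 2.61, 3.64 and 5.38 times expected. None of these longest resting loops, of 2350, 1705 and 1720 kb, was called in activated cells. The last 2 activated-only loops share 1 kept resting loop, from 21815001 to 22125000 (36 contacts at 3.59 times when resting, 27 at 5.14 times when activated). Each pair of these 3 loops has a resting loop in common at its reused anchors, so they are not independent.

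Most reused anchors carried a single added loop. Resting ends no more than 20 kb apart were joined into 3039 anchors, of which 849 (27.9%) carried a member. Of these, 706 carried 1, 121 carried 2, 20 carried 3 and 2 carried 4, and 287 of the 864 loops (33.2%) shared a resting anchor with another member. On chromosome 17 the anchor at 84580001 to 84585000 was the right end of 2 resting loops of 35 and 60 kb, of which 1 was kept. In activated cells 4 further loops of 160, 180, 305 and 315 kb ended there, with 90, 65, 57 and 51 contacts at 2.95, 2.34, 2.60 and 2.78 times expected. All 4 were longer than the resting loops and ran the same way.

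On chromosome 8 the anchor at 36920001 to 36925000 began 1 resting loop, of 325 kb, which was kept. The 4 added loops ran in both directions, with 2 of 130 and 370 kb that ended there and 2 of 230 and 490 kb that began there, at 2.53 to 3.77 times expected. A further 20 anchors carried 3 members each, and the 3 of these with most contacts summed over their members are described. On chromosome 5 the anchor at 134970001 (289 summed contacts) carried loops of 85 to 305 kb at 2.54 to 4.40 times. The anchor on chromosome 4 at 63605001 (269 summed contacts) was the right end of a resting loop of 445 kb that was not called in activated cells, and 3 shorter loops of 75, 260 and 325 kb ended there in activated cells, with 115, 89 and 65 contacts. The anchor on chromosome 5 at 125385001 (236 summed contacts) began a kept resting loop of 370 kb, and 3 added loops of 100, 195 and 445 kb began there as well. The anchors of chromosomes 4 and 17 differ in that added loops were shorter than the resting loop in the first and longer in the second.

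The other activated loops at the ends of a member are given as a description. The rule fixes much of it, since a reused end lies near a resting end, where a kept resting loop also has its activated end, and the far end lies over 20 kb from every resting end. For the 712 loops with 1 reused anchor, 587 reused ends (82.4%, 79.5 to 85.1) lay within 20 kb of an end of another activated loop, and 529 (74.3%) of a kept one. Of the far ends, 300 (42.1%, 38.6 to 45.8) lay near an end of another activated loop, 165 (23.2%) near one of another member and 129 (18.1%) near one of an activated-only loop with no reused anchor. Ends of the loops with no reused anchor lay near another activated loop in 1087 of 3194 cases (34.0%, 32.4 to 35.7).

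In contacts the loops that reused anchors stood between loops with no reused anchor and kept loops, while in median strength over all lengths they did not. The median number of observed contacts was 63 with 1 and 65.5 with 2 reused anchors, against 56 with none and 93 for kept loops. The order of none, 1 reused and kept was the same within each length class, with medians of 74, 87 and 110 in loops to 100 kb, of 58, 63.5 and 91 in loops to 200 kb, and of 45, 51 and 70.5 in longer ones. The median expected count was also higher with 1 (22.5) and 2 (25.2) reused anchors than with none (19.9), and was 30.6 for kept loops. The median strength, observed over donut-expected, was 2.79 (2.73 to 2.85) with 1, 2.72 (2.60 to 2.81) with 2 and 2.84 (2.78 to 2.88) with no reused anchor, and 3.01 (2.95 to 3.10) for kept loops. Kept loops had to match a loop that passed the authors' limits in the resting list too, which the other classes did not. The intervals of members and of loops with no reused anchor overlapped in each length class: 2.36 (2.30 to 2.42) and 2.32 (2.28 to 2.36) in loops to 100 kb, 2.75 (2.68 to 2.82) and 2.80 (2.74 to 2.87) in loops to 200 kb, and 3.18 (3.12 to 3.27) and 3.25 (3.21 to 3.34) in longer loops. Overlap does not show that they are equal. The order of the 4 medians over all lengths was the same against each of the 4 backgrounds, but their distances differed. Against the horizontal background the medians were 2.29 with 1, 2.19 with 2 and 2.34 with no reused anchor, and 2.43 for kept loops. Against the vertical background they were 2.29, 2.19, 2.38 and 2.43, so that loops with no reused anchor stood closer to kept loops than to members.

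**Figure D4:**
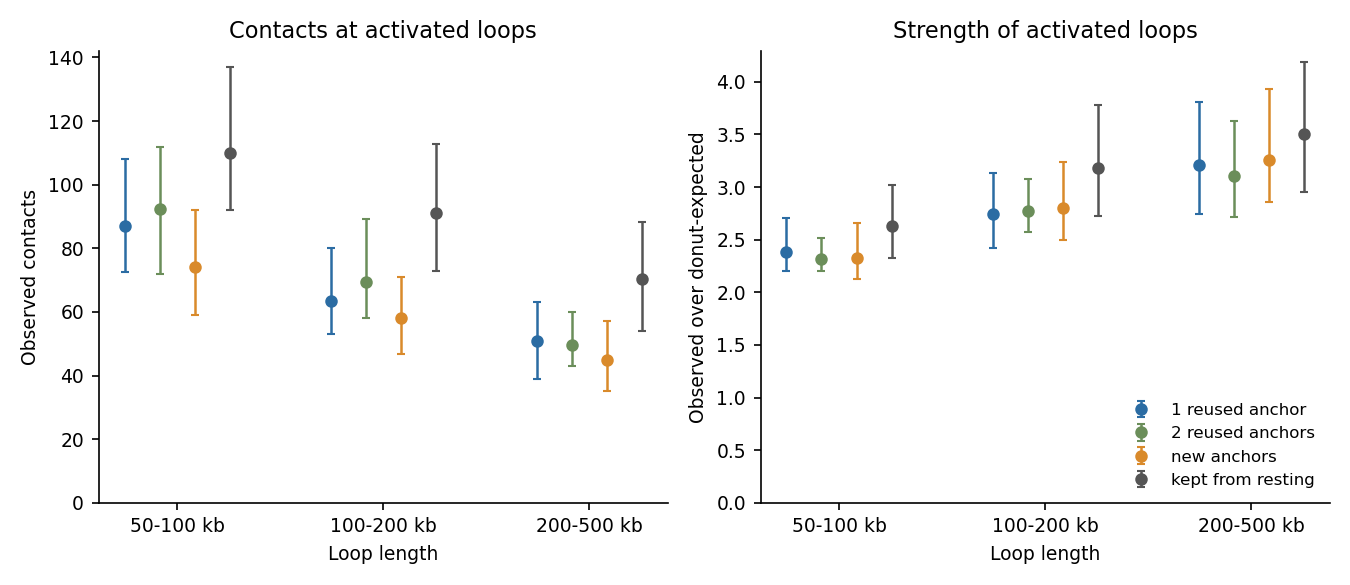
Observed contacts (left) and observed over donut-expected contacts (right) of activated loops by length class; points are medians and bars quartiles over loops. Kept loops lie highest in both panels in each class (medians of 110, 91 and 70.5 contacts), and loops with 1 reused anchor have more contacts than loops on new anchors and overlap them in strength.

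The breadth of the enriched patch and the q-values set kept loops apart but gave no clear order among the other classes. The median number of enriched pixels merged into a loop was 3 with 1, 2 and no reused anchors and 9 for kept loops. All 4 q-values in the authors' deposited table were at most 0.01 for 67.3% (63.7 to 70.6) of loops with 1 reused anchor, 71.7% (64.1 to 78.3) with 2, 65.6% (63.3 to 67.9) with none and 87.3% (85.0 to 89.3) of kept loops. Another activated loop lay within 20 kb at both ends for 5 of the 864 loops, so few were the same contact listed more than once.

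Set against the kept loop on the same anchor, within the same activated map, the added loop was more often the weaker. In 689 loops with such a partner (the kept loop with most contacts where there were several), the added loop had the higher strength in 290 (42.1%, 38.5 to 45.8) and the lower in 399. The median strengths were 2.81 and 3.01, and the median log2 ratio was -0.09. The difference was larger than 1.96 counting errors in 230 of them, 74 higher and 156 lower. The members of a pair differed in length, with medians of 165 and 130 kb, and strength rises with length in these lists. Where the lengths were within 1.5 times of each other, the added loop was the stronger in 43 of 137 (31.4%, 24.2 to 39.6), with medians of 2.81 and 3.11. With 2 reused anchors it was the stronger in 52 of 142 (36.6%, 29.1 to 44.8). Several members share 1 kept loop, so these pairs are not independent. The kept partner had passed the authors' limits in both lists, and the added loop only in the activated list. Both this and the choice of the partner with most contacts lean toward a stronger partner, so the direction is a description of the pairs as chosen.

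Loops with reused anchors were spread over all 19 autosomes. Their share of the activated-only loops ran from 23.9% on chromosome 14 (16 of 67, 15.3 to 35.3) to 45.9% on chromosome 16 (39 of 85, 35.7 to 56.4). Chromosome 11 had the most, with 92 of 227 (40.5%), of which 24 had 2 reused anchors, and also the densest resting list, at 2.70 loop ends per Mb. Chromosome 16 had 1.28 resting ends per Mb and chromosome 14 had 1.13. Whether the share goes with the density of resting ends was not tested. The share hardly varied with length, at 34.7% (31.0 to 38.5) in loops to 100 kb, 35.4% (32.4 to 38.4) in loops to 200 kb and 35.1% (32.0 to 38.3) in longer ones.

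**Figure D5:**
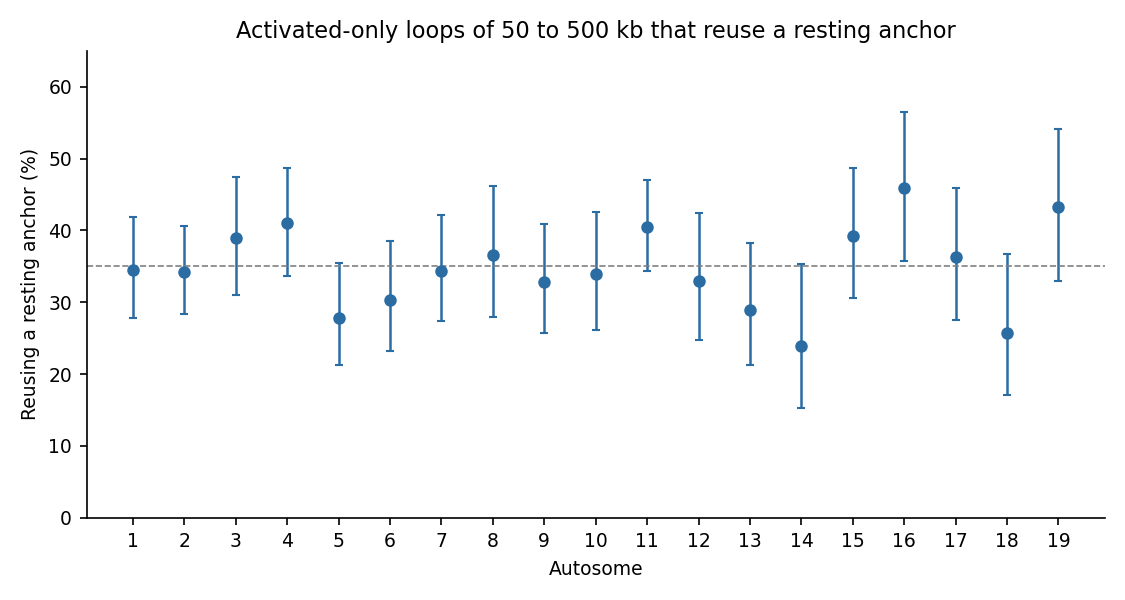
Share of activated-only loops of 50 to 500 kb that reuse a resting anchor (%), by autosome, with Wilson 95% intervals; the dashed line is the share over all autosomes (35.1%). Chromosome 14 is lowest at 23.9% and chromosome 16 highest at 45.9%; the interval of 16 lies just above the line.

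Some members differ from a resting loop by a shift of 1 end just beyond the tolerance. In 94 of the 864 loops (10.9%, 8.97 to 13.1), a resting loop with the same anchor on the same side had its far end 25 to 40 kb away, and in 65 of these 25 to 30 kb away. In 35 further loops it was 45 to 50 kb away, and in 214 (24.8%) 55 to 100 kb. Whether these 94 are called activated-only thus depends on the tolerance. Without them 770 loops were left, 32.5% of the remaining activated-only loops.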

How the data were processed

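Per the labels, in situ Hi-C libraries were made from resting and activated splenic B cells. Per the submitters' processing notes, BWA and Juicer were used on build mm9; their versions and the loop caller are not stated in these sources. The deposited lists, per the file headers, give for each loop an observed contact count (whole numbers at a 5 kb pixel, not normalized), expected counts from 4 local backgrounds, a q-value against each, and the number of merged pixels. The q-values in the authors' deposited tables reached 0.0998 at most, and the lowest observed over donut-expected ratio was 1.75. Library totals are not stated. Observed counts ran from 19 to 999 in the resting and 14 to 932 in the activated list.

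Loops on chromosomes X and Y were left out. Distances between loops were taken between the starts of their end pixels, length was the distance between the starts of both anchors, and printed positions count from 1. A loop was kept with both ends within 20 kb of those of a loop in the other list, and strength was observed over donut-expected counts. The named loops were the 5 strongest (at least 30 contacts) and 3 longest with 1 and with 2 reused anchors, the 5 anchors with most members (ties by summed contacts), and the 5 largest gains and 3 largest losses in length. The members, lists and alternatives were chosen with earlier results of these data known. Matching was tested on simulated loops. Alternatives covered tolerance, q-values, list size, length, merged pixels, anchor source and background. Python 3.11.15, pandas 2.3.3, NumPy 2.4.6, SciPy 1.17.1 and matplotlib 3.10.9 were used. No genome or annotation of build mm9 was used, so anchors carry no genes or sequences here, and the other 224 libraries were not analysed here.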

Additional observations from a re-analysis of the deposited data

How the results depend on the processing

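Loops without resting counts, 1 list per state and the higher expected counts of the activated map limit what can be said. A loop not called in resting cells is not shown to be absent, and no spread between mice can be given. Of 54 alternative values, 22 lay inside the main value's 95% interval and 32 outside it; the cause was not tested where the alternative's construction does not give it. The share of activated-only loops with a reused anchor (35.1%) was 27.3%, 30.6% and 32.0% with tolerances of 0, 5 and 10 kb, 27.8% with all 4 q-values at most 0.01, 32.9% with the activated list cut to the number of resting loops by strength, 31.8% with at least 2 merged pixels, 26.1% counting resting ends on the same side only and 28.6% with anchors of resting loops of 50 to 500 kb only. Without the members whose far end lay within 40 kb of that of a resting loop on the same anchor, a choice made after seeing the data, it was 32.5%. The share of members with 2 reused anchors (17.6%) was 8.22% and 13.5% at 0 and 5 kb, 15.2% with strict q-values and 13.9% with the cut list. The share on the same side (68.1%) was 90.5%, 87.1%, 78.9% and 62.4% at 0, 5, 10 and 25 kb. A smaller tolerance moves slightly shifted loops from kept to activated-only, so these loops enter the counts by construction. The share with a kept resting loop (79.7%) was 19.2%, 48.3% and 65.0% at 0, 5 and 10 kb, 71.3% with strict q-values and 54.9% with the cut list, in which fewer loops could be kept. The share longer than the resting loop (64.7%) was 55.7% and 58.9% at 0 and 5 kb, 75.5% with the cut list and 75.1% for loops of 100 to 500 kb. The median strength of members (2.77) was 2.69 against the lower left, 2.28 against the horizontal and 2.26 against the vertical background, 2.93 with strict q-values, 2.36 for members of 50 to 100 kb and 3.18 for those of 200 to 500 kb. The shares on the same side and longer than the resting loop stayed above 50% under each alternative run. No run restricted the length comparison to resting loops over 50 kb, so part of the share of longer loops is fixed by the rule in each run. That this share stayed above 50% therefore does not bear on a preference for longer loops. No paired analysis was possible because each state has 1 pooled list.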
